A study of Mus musculus with 3 samples.

Results

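Poly(A) sites in terminal exons whose upstream window held a rare variant of the poly(A) signal were examined in F121-9, a hybrid line of embryonic stem (ES) cells from the mouse strains CAST and 129. A site was a member when it lay on chromosomes 1 to 19, carried the deposited region code TE, had at least 1 listed hexamer beginning 40 to 10 bases upstream, and had neither AATAAA nor ATTAAA in that window. The rule gave 12275 members, which were 21.8% of the 56377 autosomal TE sites and came from 178115 listed sites in all. The other TE sites held AATAAA (15457 sites), ATTAAA without AATAAA (5643 sites) or no listed hexamer in the window (23002 sites). The members lay in 6869 genes, so many share a gene or an exon and are not independent of each other.

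The series holds a single group of 3 libraries, named biological replicates 1, 2 and 3, from cells at passage 14 and 500 ng of RNA each. The assay was poly(A) site sequencing (PAS-seq, here the QuantSeq protocol), in which each read marks the 3′ end of a polyadenylated RNA. No condition was contrasted, no treatment is named, and all comparisons were between classes of sites within a library. Separate cultures are not named in the labels, and p-values then measure only the spread between these libraries, which may be technical. Values are RPM, the reads at a site scaled to the reads of the library, and coordinates are mm10.

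A total of 10147672, 13513327 and 13040620 reads lay at listed sites in replicates 1, 2 and 3. Replicate 3 held no reads on the X chromosome, and its 216 reads off the autosomes lay on unplaced contigs, so its autosomal RPM values run higher (927188 summed RPM against 841292 and 841462). Ratios and shares within a library are not moved by this scale. Of 8 ES cell markers, 6 reached 10 RPM at their terminal exon sites, led by Tdh (904 RPM), whereas Zfp42 and Pou5f1 did not, and Pou5f1 was the lowest at 0.211 RPM. These values count only sites with the code TE that were assigned to the gene, so they need not give its whole output. Whether reads of Pou5f1 lay at sites with another code or assignment was not tested. No marker of fibroblast feeders (8 genes), endoderm (5), mesoderm (4) or neuroectoderm (4) reached 10 RPM. The feeder markers summed to 2.35, 3.03 and 11.4 RPM, with Postn, Lum and Dcn at no listed site. What these low levels contribute to the results was not tested.

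Cleavage and polyadenylation of most mammalian pre-mRNAs depends on a hexamer a short distance upstream of the cut, which the CPSF subunits WDR33 and CPSF4 bind directly. AATAAA is the canonical form, ATTAAA is the commonest variant, and a set of hexamers that mostly differ from AATAAA at a single base occurs at the remaining sites with a recognisable signal. Flanking elements add to the signal: TGTA motifs upstream bind CFIm, and GT-rich or T-rich stretches downstream bind CstF. Proximal sites of tandem arrays are known to carry weaker signals more often than the distal site of a gene. Because the reverse transcription primer is oligo(dT), it can also anneal to A-rich stretches within a transcript.

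The 16 rare hexamers are named below together with their change from AATAAA, with positions counted from 1 at the 5′ end (A2G: AATAAA has A at position 2 and the variant has G). The stretches that follow show 30 bases each, on the transcribed strand, 5′ to 3′, with the listed hexamers in capitals. They were chosen as the strongest member sites and as an example for most of the variants, because the members differ from each other only in these letters and their setting.
Ncl, AGTAAA at −20, chr1:86350496-86350525, minus strand, 3′ UTR: attccaagacAGTAAAgatcctaaactctg
Mdh2, AGTAAA at −28, chr5:135790360-135790389, plus strand, 3′ UTR: acAGTAAAgcaggctctgattttctttttc
Eif2b5, AGTAAA at −23, chr16:20509294-20509323, plus strand, 3′ UTR: ggggaacAGTAAAgagcagctggtcctctc
Sf3b5, TATAAA at −22, chr10:13009153-13009182, plus strand, 3′ UTR: catatataTATAAAgtttagggtttgctct
Kpnb1, GATAAA at −24, chr11:97161532-97161561, minus strand, 3′ UTR: cgatctGATAAAataaccatttggaaactg
Tkt, AATATA at −24, chr14:30573593-30573622, plus strand, 3′ UTR: gaggtaAATATAtgttttgagaaaaaaatt
Idh2, ACTAAA at −26, chr7:80094841-80094870, minus strand, just past the annotated end: agctACTAAAaagctcttcgcaaaactgtc
Edf1, AACAAA at −23, chr2:25562052-25562081, plus strand, 3′ UTR: gctgtcaAACAAAgcaaaccttgtaaagtg
Vdac2, AATAGA at −23, chr14:21845490-21845519, plus strand, 3′ UTR: atgatgaAATAGAcgtttatgaaaaccgtg
Mtch2, AATAAT at −27, chr2:90865362-90865391, plus strand, 3′ UTR: tttAATAATcatttaatcttgggaaaatgg
Psat1, AATGAA at −23, chr19:15905478-15905507, minus strand, 3′ UTR: tatttctAATGAAacagttttgttcagccc
Ube2q1, ATTACA at −19, chr3:89782713-89782742, plus strand, 3′ UTR: ttgggaaaacaATTACAgtttgttaatttg
Cdk4, AACAAG at −29, chr10:127067267-127067296, plus strand, 3′ UTR: aAACAAGacaagacaaagagtatggtcttt
Sumo3, AGTAAA at −17 and AATATA at −13, chr10:77617387-77617416, plus strand, 3′ UTR: tactactgtaaacAGTAAATATAgtttggt
Rpl23a, AATATA at −38, CATAAA at −20 and AATAAT at −16, chr11:78180929-78180958, minus strand, just past the annotated end: AATATAtacttttttcacCATAAATAATgc
Bcat1, GATAAA at −23, chr6:144999136-144999165, minus strand, 3′ UTR: gttgggaGATAAActctggatttgaatctt
Hsp90aa1, AAGAAA at −20, chr12:110694281-110694310, minus strand, coding sequence: gatgaggctgAAGAAAaggaagagaaagag

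The first question was how much of the cells' terminal exon output rested on these sites. Members held 10.9%, 11.1% and 10.7% of the autosomal TE RPM in replicates 1, 2 and 3, a mean of 10.9% ± 0.177 (SD, n = 3) from 21.8% of the sites. AATAAA sites held 63.3% ± 0.708, ATTAAA sites 13.6% ± 0.184 and sites without a listed hexamer 12.2% ± 0.862 (SD, n = 3 each). The last share rested on 1 site: without the TE site with the most reads it was 5.20%, and the members held 11.7%.

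Level per site followed the class of signal. A member averaged 6.97, 7.12 and 7.55 RPM in the 3 libraries (mean 7.22 ± 0.304, SD). The AATAAA sites averaged 33.4 ± 2.07 RPM, the ATTAAA sites 19.6 ± 1.33 and the sites without a hexamer 4.33 ± 0.260. The 4 ranges did not overlap between any of the classes. The log2 ratio of the member mean to the AATAAA mean was −2.21 ± 0.029 (4.63-fold lower, in 3 of 3 libraries), and to the ATTAAA mean −1.44 ± 0.038 (2.71-fold lower, in 3 of 3). Against sites without a hexamer it was 0.74 ± 0.104 (1.67-fold higher, in 3 of 3). Each of these 3 comparisons gave p = 0.25 in the exact two-sided sign-flip permutation test (0.25 after Benjamini-Hochberg adjustment), the smallest value 3 libraries allow, so no p under 0.05 could be reached. In bulk libraries, fewer cells using a site and fewer transcripts per cell cannot be told apart, and these means also compare different genes.

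How many sparsely read sites a class holds moved these ratios. Of the members, 4520 (36.8%) had reads in every library and 44.0% in only 1, against 65.2% and 20.2% of AATAAA sites and 22.5% and 57.3% of sites without a hexamer. Among sites read in every library the log2 ratios were −1.42 against AATAAA, −0.89 against ATTAAA and 0.04 against sites without a hexamer, the last with an exact sign-flip p of 0.75. With the strongest site without a hexamer still in that subset, the difference from sites without a hexamer was within the spread between libraries. That site alone moved the share of its class in the TE RPM from 5.20% to 12.2%. The ratio of the subset without that site was not computed, so the subset does not show that the classes were alike. Over all sites but the strongest of each class, the log2 ratio to sites without a hexamer was 2.02.

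**Figure D1:**
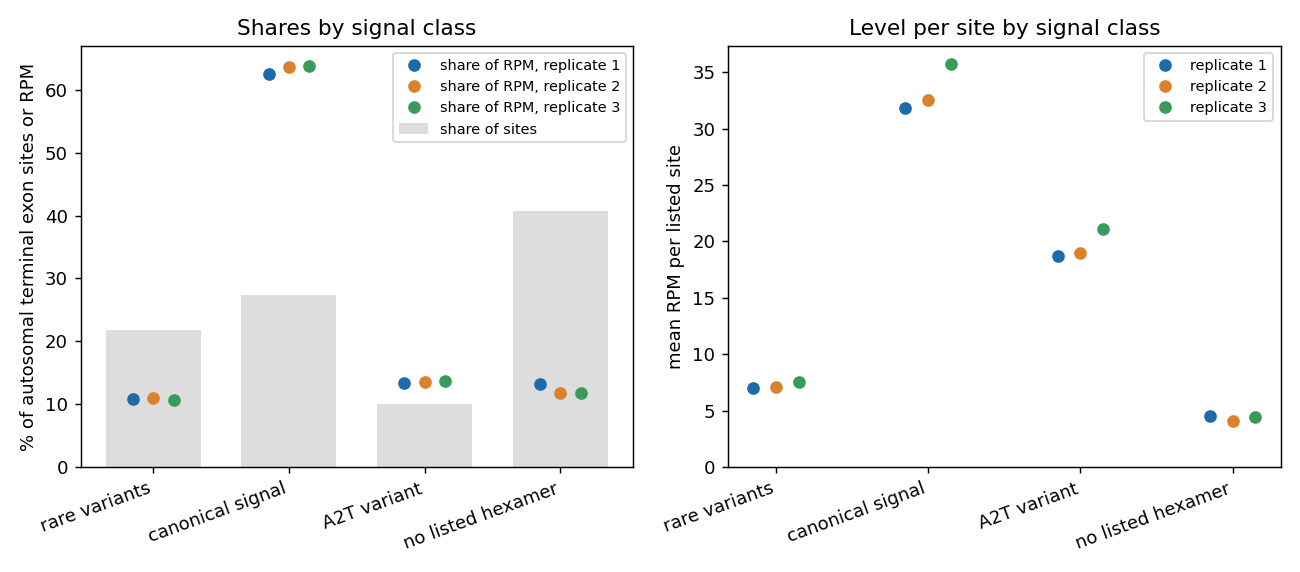
Left, share of autosomal terminal exon sites (bars) and of their RPM in each library (points) for the 4 signal classes; right, mean RPM per listed site in each library. Rare-variant sites make up 21.8% of sites and 10.9% of RPM, and their 3 libraries (6.97 to 7.55 RPM per site) lie between those of the sites without a listed hexamer and the A2T variant (ATTAAA).

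Most members were lightly used and a small set carried the output. The median member had 0.471 RPM, averaged over the libraries, against 3.24 RPM for AATAAA sites and 1.47 RPM for ATTAAA sites. The 1265 members with at least 10 RPM held 86.2% of the member RPM, and 172 reached 100 RPM. Repeatability was compared at like levels. Between 1 and 10 RPM, 80.0% of members had reads in every library and their median coefficient of variation was 62.0%, against 84.3% and 55.6% for AATAAA sites. Between 10 and 100 RPM it was 21.8% for members, 21.1% for AATAAA, 22.1% for ATTAAA and 22.0% for sites without a hexamer.

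The 10 strongest members included housekeeping and growth genes. Rpl23a, which codes for a protein of the large ribosomal subunit, had 3778, 4041 and 3456 RPM at a site with 3 variants in its window, and this site held 99.9% of the gene's terminal exon RPM. Ncl, the gene of the nucleolar protein nucleolin, had 1882, 2014 and 2031 RPM at its AGTAAA site, 92.6% ± 0.678 of the gene. Mdh2, a malate dehydrogenase of the mitochondrial citric acid cycle, had 1218, 1128 and 1093 RPM (99.9% of the gene). Eif2b5, a subunit of the exchange factor for the initiation factor eIF2, had 776, 793 and 968 RPM and no other site above a trace. These 3 AGTAAA sites lay within 2 bases of an annotated transcript end. Sumo3, a ubiquitin-like modifier, had 748, 563 and 815 RPM (98.9% of the gene) at a site where AGTAAA and AATATA overlap, as the printed stretch shows. Mfge8, a secreted glycoprotein, had 705, 571 and 671 RPM at a site with AACAAG and AATACA. Reads from Rpl23a, Npm1 and other genes with near-identical copies are uncertain, because the treatment of reads that map to several places is not given in the sources used here.

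The label "rare variant" did not describe every strong member well, since some had a main signal just outside the window. AATAAA or ATTAAA was listed outside the window at 535 members (4.36%), upstream of it at 470 of them. These 535 sites held 13.9% ± 0.354 of the member RPM (SD, n = 3) and averaged 23.1 RPM, against 6.49 RPM for the rest. They made up 148 (11.7%) of the 1265 members at 10 RPM or more. Among the 10 strongest, Bcat1, an aminotransferase of branched-chain amino acids, had 820, 731 and 857 RPM and AATAAA at −43. Npm1, nucleophosmin, had 722, 768 and 666 RPM and AATAAA at −42. Gas5, a noncoding RNA that hosts snoRNAs, had 717, 661 and 770 RPM and ATTAAA at −47. Sites are deposited as intervals, and offsets run from 1 position within them: counted from the upstream end of the interval, the main signal fell inside the window at 274 of the 470 (58.3%), which held 9.96% ± 0.336 of the member RPM. Levels of some single variants are therefore also given without these 535 sites. The counts of genes led by members, the comparisons within genes and the gene lists keep them.

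Hsp90aa1, the stress-inducible cytosolic HSP90 chaperone, gave a member of another kind. Its AAGAAA site had 610, 536 and 482 RPM, which was 20.8%, 20.7% and 14.6% of the gene's terminal exon RPM. This site lay in coding sequence, 106 bases from the nearest annotated end, and was followed by an A-rich stretch (12 or more adenines among the 20 bases downstream, or 6 in a row). Whether oligo(dT) annealed there was not tested.

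The single variants were then compared. A total of 9782 members (79.7%) held only 1 of the 16 hexamers, 2140 (17.4%) held 2 different ones, 325 held 3, 26 held 4 and 2 held 5. Members with 1 variant carried 72.7% of the member RPM. AGTAAA (A2G) stood out among them. Its 1175 sites averaged 13.7, 13.9 and 14.9 RPM in replicates 1, 2 and 3, above every other variant in every library, and held 25.9% ± 0.045 of the RPM at sites with 1 variant from 12.01% of the sites. Against all other members the log2 ratio of AGTAAA was 1.13 ± 0.010 (2.19-fold higher, in 3 of 3 libraries), 1.02 without its strongest site, 0.81 among sites read in every library and 1.25 without members that had a main signal outside the window. AGTAAA sites were also more often read in all libraries (45.7%, against 36.8% of all members).

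The next variants fell into groups of similar mean level. GATAAA (A1G, 612 sites) averaged 8.41 ± 0.335 RPM per site, AATATA (A5T, 759 sites) 8.21 ± 0.465 and TATAAA (A1T, 979 sites) 8.02 ± 0.158. GATAAA was the highest of these 3 in every library, but its log2 ratio to all other members went from 0.23 to 0.06 without its strongest site, below those of AATATA and TATAAA (0.17 each, without theirs). They lay above the following group in every library. That group held CATAAA (A1C, 829 sites, 6.30 ± 0.314), ACTAAA (A2C, 417 sites, 5.97 ± 0.448), AATACA (A5C, 756 sites, 5.85 ± 0.139) and ATTATA (A2T+A5T, 367 sites, 5.76 ± 0.437).

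Lower levels were found for changes at bases 3, 4 and 6 and for the other variants that remained. AACAAA (T3C, 605 sites) averaged 4.58 ± 0.262 RPM, AATAGA (A5G, 366 sites) 4.24 ± 0.184, AATAAT (A6T, 401 sites) 4.13 ± 0.138 and AATGAA (A4G, 675 sites) 3.94 ± 0.160. The lowest means were those of AAGAAA (T3G, 896 sites, 3.31 ± 0.128), ATTACA (A2T+A5C, 400 sites, 2.93 ± 0.149), AATAAG (A6G, 258 sites, 2.71 ± 0.292) and AACAAG (T3C+A6G, 287 sites, 2.60 ± 0.121). In the exact sign-flip test of each variant against all other members, all 16 gave p = 0.25 (0.25 adjusted over the 16), again the smallest possible.

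Several of these means leaned on few sites. The strongest site held 37.0% of the RPM of AACAAG sites (Cdk4), 33.8% of ATTATA sites (Gas5) and 21.5% of AATAAT sites (Mtch2). It held 20.5% for AATAGA (Pcbp2), 20.3% for AATAAG (Nol10), 18.3% for AAGAAA (the Hsp90aa1 site in coding sequence) and 15.6% for GATAAA (Bcat1). The order of the lower variants also moved with the window: for hexamers at −35 to −15 the log2 ratio to other members was −0.76 for AACAAG (−1.50 in the full window) and −0.88 for ATTATA (−0.33). In that window AATAAG was lowest, at −1.77. Without members that had a main signal outside the window, ATTATA fell to 2.11 RPM per site and to rank 15 of 16, and AATAAG to 1.32 RPM and rank 16. AGTAAA then led with 13.6 RPM, followed by AATATA with 7.68 RPM and by TATAAA with 7.503 RPM. By changed base, the A2 variants averaged 12.02 ± 0.579 RPM per site and held 29.7% of the RPM at sites with 1 variant. The A1 variants averaged 7.53 ± 0.255 (28.3%), the A5 variants 6.49 ± 0.275 (19.0%), and the variants of bases 3, 4 and 6 averaged 3.82, 3.94 and 3.57 RPM.

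Hexamers occur by base composition alone, so each variant was also counted in a window of the same length that began 100 bases downstream, over all TE sites without a main signal in the upstream window. AGTAAA was present upstream of 5.15% ± 0.132 of such sites with reads and in the control window of 1.15% ± 0.049, a 4.501-fold difference. AATACA followed with 3.72-fold, AATATA with 3.66-fold, CATAAA with 3.39-fold, TATAAA with 3.29-fold and GATAAA with 3.04-fold. At the other end, AAGAAA stood upstream of 4.30% of sites and in 2.99% of control windows (1.44-fold), and AACAAG reached 1.33-fold. Every variant was more frequent upstream in 3 of 3 libraries, with an exact sign-flip p of 0.25 (0.25 adjusted over the 16).

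Weighted by RPM the differences were larger and less even. AATATA stood at 24.2-fold, AGTAAA at 16.9-fold, TATAAA at 13.1-fold and ATTATA at 8.82-fold, whereas ACTAAA stood at 1.93-fold and AACAAG at 2.02-fold. Some of these rested on the control window. With a control window upstream in place of the downstream one, the log2 ratio was 3.24 in place of 0.95 for ACTAAA, 4.04 in place of 1.94 for CATAAA and 4.08 in place of 2.31 for GATAAA. It was lower for AATGAA (1.28 in place of 2.63) and ATTATA (2.03 in place of 3.14). AACAAG stayed low (0.98 in place of 1.02), and AATATA and AGTAAA stayed high (4.402 and 4.292).

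**Figure D2:**
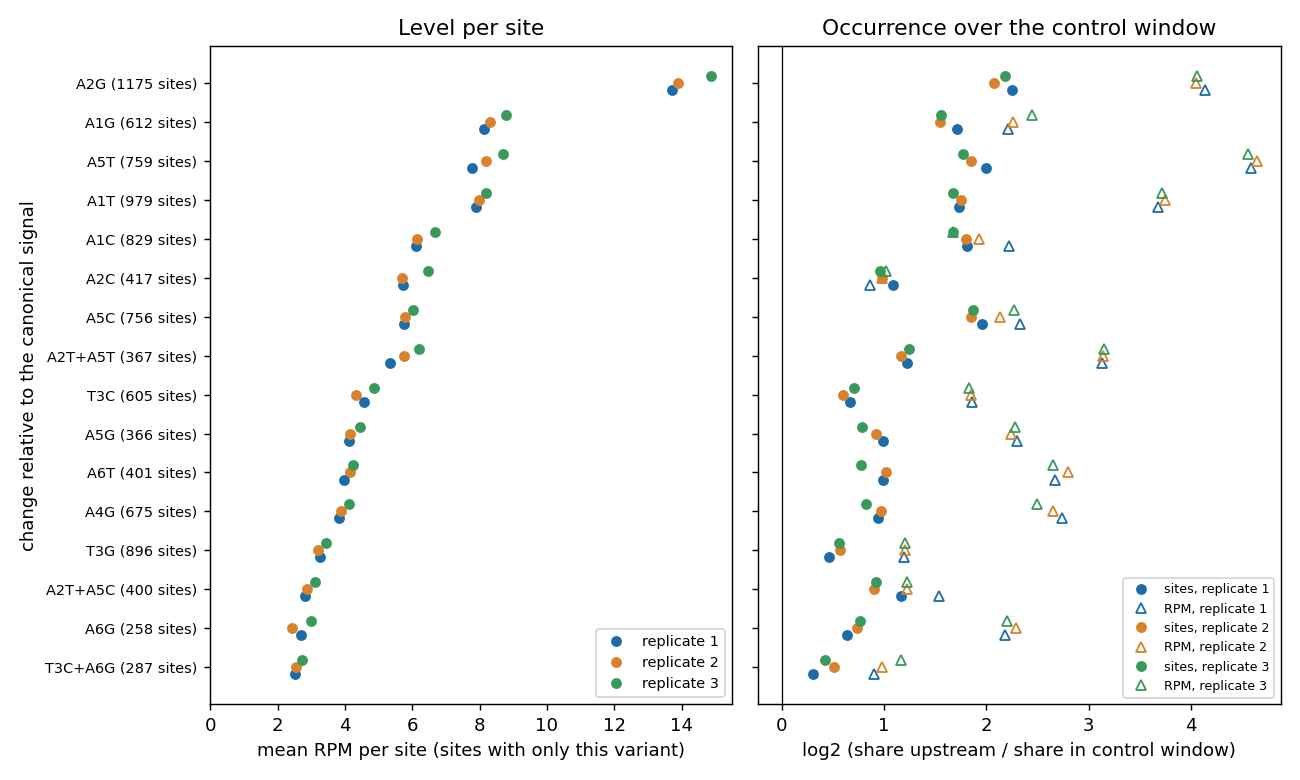
Left, mean RPM per site in each library for sites with only that variant, named by its change from the canonical signal; right, log2 ratio of the share of sites (circles) or of RPM (triangles) with the variant upstream to the share with it in the control window. A2G lies highest on the left in every library (13.7 to 14.9 RPM), and every point on the right lies above 0.

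Position told the variants apart as well. The first base of a rare hexamer lay at a median of −23 (quartiles −27 and −19), where the site itself is −1, against −22 (−26 and −20) for AATAAA. Between −30 and −15 lay 77.2% of the rare hexamers at sites with 1 variant, 87.7% of AATAAA and 87.0% of ATTAAA, while an even spread over the window would put 51.6% there. At members with at least 10 RPM the share was 87.8%. AGTAAA (86.8%) and AATACA (85.9%) had nearly the AATAAA share, and AAGAAA (63.4%), AACAAA (65.3%) and AACAAG (67.0%) had the lowest. At the borders of the rule, the 132 sites with rare hexamers only at −40 averaged 1.66 RPM and the 95 with them only at −10 averaged 2.99 RPM. Just outside, the 109 sites with a nearest rare hexamer at −41 averaged 2.55 RPM and the 80 with it at −9 averaged 0.615 RPM.

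**Figure D3:**
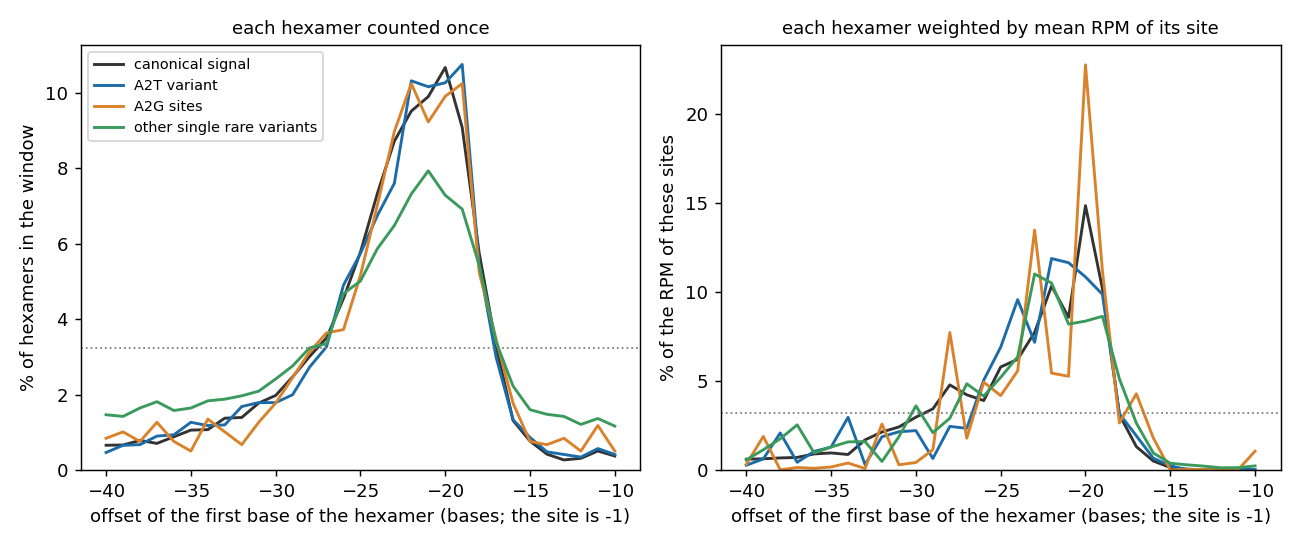
Share of hexamers (left) and of the RPM of their sites (right) by offset of the first base within the window, for the canonical signal, the A2T variant, sites with only the A2G variant and the other single rare variants. The dotted line is an even spread; the A2G curve follows the canonical curve on the left, and the other rare variants have a lower peak and higher flanks, with 77.2% of all single rare hexamers from −30 to −15 against 87.7% of canonical ones.

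Combinations of variants were often overlapping letters. Of the 2140 members with 2 variants, 1106 (51.7%) had hexamers that shared bases. The commonest combination was AATATA with TATAAA (241 sites, 216 of them overlapping), at 8.04 RPM per site, close to 8.21 and 8.02 RPM for each alone. ATTATA with TATAAA followed (143 sites, 129 overlapping) at 3.92 RPM. AATACA with TATAAA had a higher mean, 16.05 RPM over 49 sites. Such sites led in Nfu1 and Smc4, each with 165 RPM at terminal exon sites, and how far the mean rests on few sites was not tested.

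The flanks were compared over all sites of each class. An A-rich stretch downstream was found at 6.22% of members, 1.48% of AATAAA, 1.98% of ATTAAA and 12.4% of sites without a hexamer, and at 7.04% of all TE sites. It differed between variants: 15.96% of AAGAAA, 13.9% of AACAAA, 10.9% of AATAAG and 10.1% of AACAAG sites were A-rich, against 3.83% of AGTAAA and 2.90% of CATAAA sites. What this contributes to the levels was not tested. The motif TGTA occurred in bases −100 to −41 on the transcript strand at 35.0% of members, 37.5% of AATAAA sites and 28.2% of sites without a hexamer (33.4% of all TE sites). TGTGT occurred in the 40 bases downstream at 14.3%, 16.3% and 10.7% of these classes (13.5% of all). Among sites at 10 RPM or more TGTGT stood at 22.8%, 20.5% and 15.4% of these classes (20.8% of all). ATTAAA sites at that level stood at 22.5%, close to the members. TTTTT occurred in the same stretch at 23.2% of members, 17.3% of AATAAA sites and 25.9% of sites without a hexamer (22.5% of all). Median A+T content of the 100 bases upstream was 63% for members, 64% for AATAAA and 55% for sites without a hexamer. Coding sequence held 4.60% of members, 0.899% of AATAAA sites and 9.69% of sites without a hexamer, and the 3′ UTR held 83.1% of members.

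Within their genes, most members were minor sites, as were most terminal exon sites. In genes with at least 10 RPM at terminal exon sites, the median member took 0.785% of its gene's RPM, against 0.823% for all terminal exon sites, 45.2% for an AATAAA site, 7.28% for an ATTAAA site and 0.0892% for a site without a hexamer. Among members with at least 5% of their gene's RPM, 37.8% were the most proximal such site, 24.4% lay in the middle, 21.2% were the most distal and 16.6% the only one. The most proximal made up 18.1% of AATAAA sites, 54.0% of sites without a hexamer and 27.2% of all terminal exon sites at that share, and the most distal 32.0%, 10.8% and 27.2%. Members ended within 10 bases of an annotated transcript end at 18.2%, AATAAA sites at 60.0% and ATTAAA sites at 42.2%.

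Still, a member was the most used terminal exon site of many genes. Of 7322 genes with at least 10 RPM, 4183 (57.1%) had a member, and in 1021 (13.9%) a member was the most used site. AATAAA sites led in 4885 genes, ATTAAA sites in 1120 and sites without a hexamer in 296. Of the 1021 leading members, 892 had no main signal listed outside the window and no site with a main signal within 50 bases. In 478 genes (6.53%) members held at least 90% of the RPM in every library, and 517 genes had members and no site of either main signal. The leading member held 2 or more variants in 261 of the 1021 genes. Where it held 1, this was AGTAAA in 173 genes, TATAAA in 98, AATACA in 81, CATAAA in 74, AATATA in 71 and AACAAG in 7. A member with AGTAAA alone in a gene with at least 10 RPM was the most used site in 21.3% of cases, against 4.39% for AAGAAA alone and 3.33% for AACAAG alone. Beside those named above, such genes included Srm (spermidine synthase), whose only listed terminal exon site was a member with 472, 484 and 511 RPM. In Eif3g (a subunit of initiation factor eIF3), 100% of 378, 386 and 426 RPM lay at members led by an AGTAAA site.

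**Figure D4:**
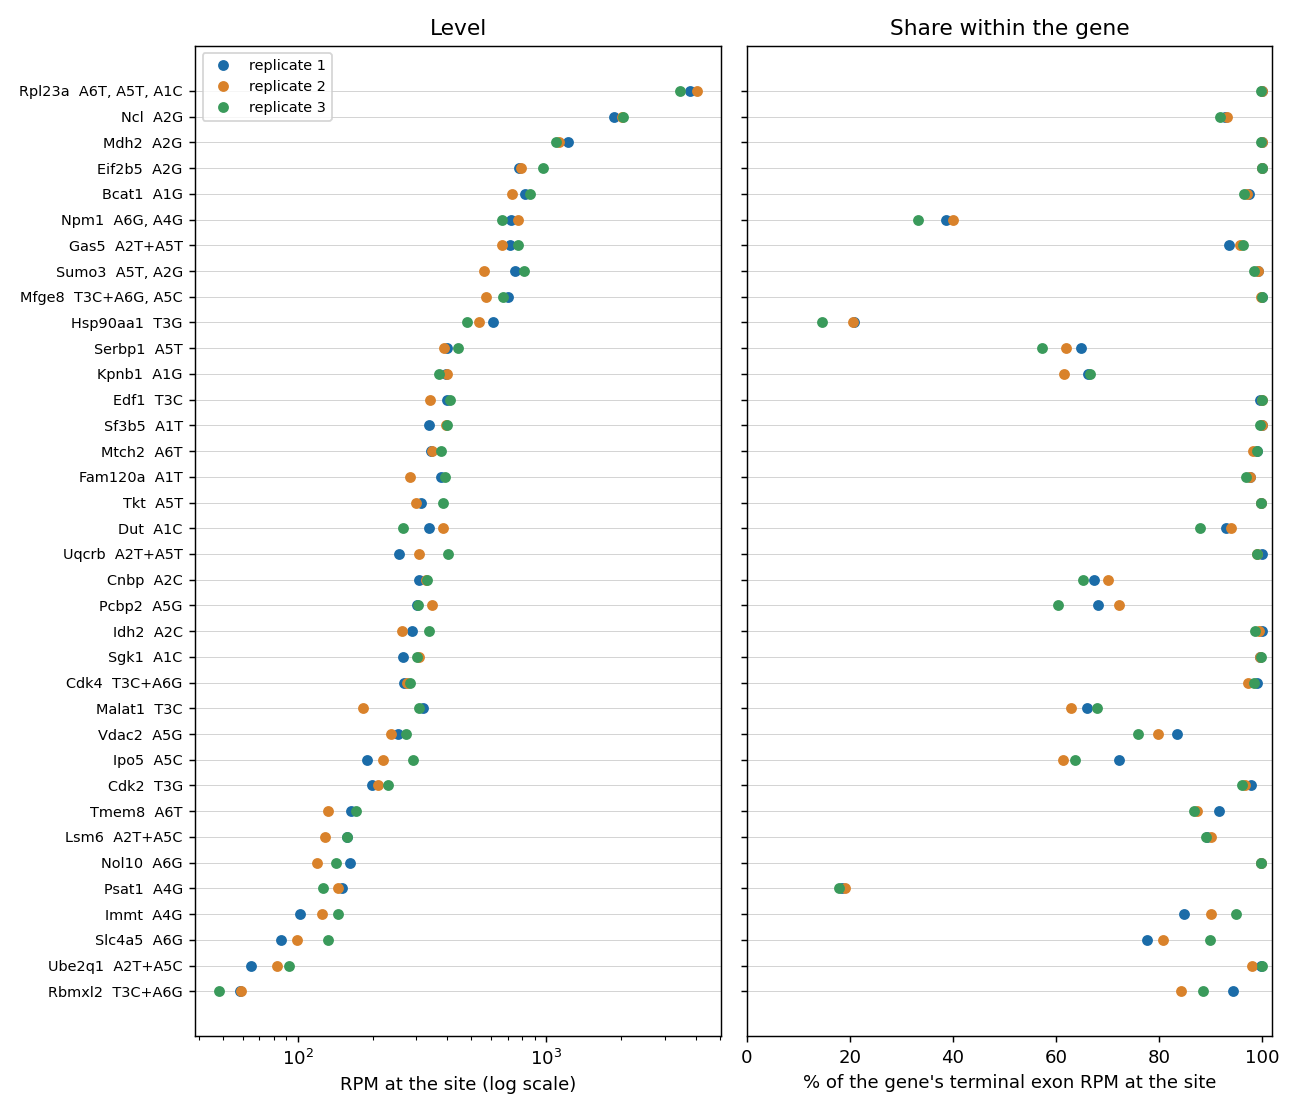
RPM at the site in each library (left, log scale) and share of the gene's terminal exon RPM (right) for the strongest members and leading sites of the variants, labelled by gene and by change from the canonical signal. The sites of Npm1, Hsp90aa1 and Psat1 hold smaller shares than all others shown, of which that of Serbp1 is the lowest (57.3% in replicate 3). A main signal was also listed outside the window at Bcat1, Npm1, Gas5, Fam120a, Dut, Uqcrb, Pcbp2, Sgk1, Ipo5, Cdk2, Nol10, Immt and Slc4a5.

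Members and AATAAA sites of the same gene were then compared, which removes the level of the gene. The summed RPM of both was compared in 3453 genes with at least 5 RPM over both together, out of 4460 genes that had both, with limma on log2 ratios of RPM + 0.05 within each library, a scale that understates the difference of rarely used sites. With genes called past 2-fold and 0.05 for the adjusted p (Benjamini-Hochberg), members were higher in 368 genes (10.7%) and AATAAA sites in 2522 (73.0%). In these calls all 3 libraries had the same direction. Members held a median of 5.31% of the RPM of both classes (quartiles 1.02% and 26.6%). Summed over all tested genes they held 13.7% ± 0.282 (SD, n = 3). Members had no reads in at least 1 library in 1332 of the 2522 genes. AATAAA sites had none in at least 1 library in 141 of the 368 genes with higher members. Ratios in both of these sets depend on the pseudocount. The median log2 ratio was −4.67, and −3.62 with a pseudocount of 0.5 RPM.

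ATTAAA sites did better against AATAAA sites of the same gene, and sites without a hexamer worse. ATTAAA sites were higher in 410 of 2046 genes (20.0%) and lower in 1195 (58.4%), with a median share of 11.8%. Sites without a hexamer were higher in 145 of 4882 genes (2.97%) and lower in 4388 (89.9%), with a median share of 1.82%. These comparisons share the AATAAA sites of many genes, and the differences between them were not tested. The order of the classes was that found for the level per site.

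**Figure D5:**
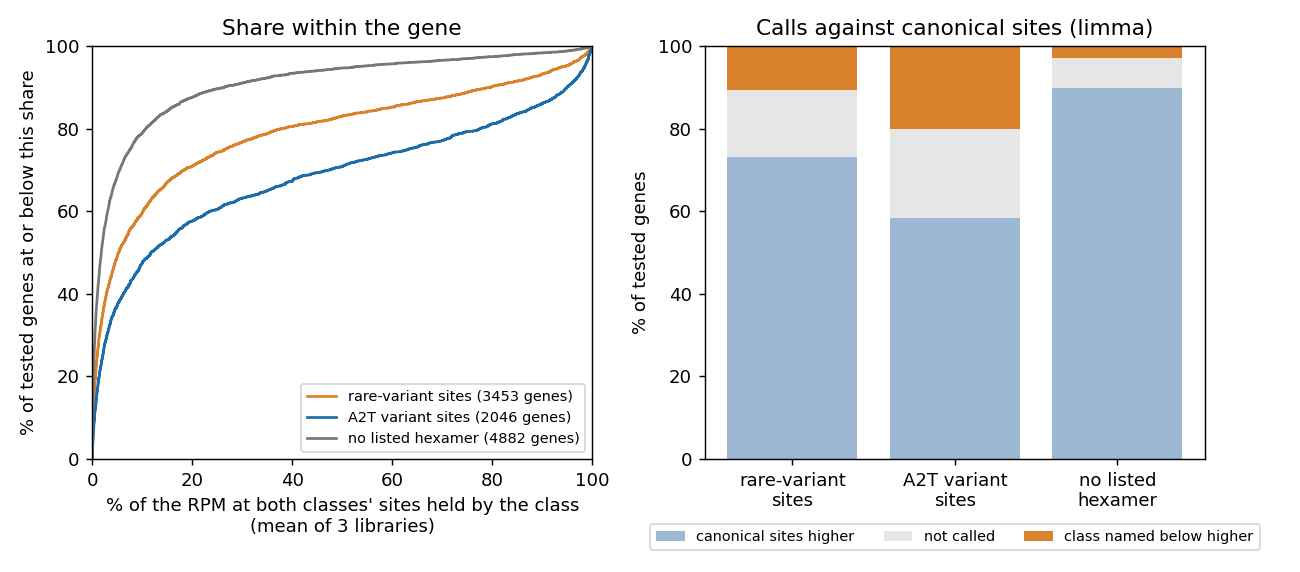
Left, cumulative percent of tested genes by the share of RPM that a class holds against the canonical sites of the same gene; right, percent of tested genes called by limma in each direction. Rare-variant sites were higher in 10.7% and lower in 73.0% of genes, between the A2T variant (20.0% and 58.4%) and sites with no listed hexamer (2.97% and 89.9%).

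The result within genes differed with the variant in the gene's most used member, a difference that was not tested. With AGTAAA members were higher in 60 of 329 genes (18.2%), with CATAAA in 27 of 219 (12.3%), with AATATA in 25 of 205 (12.2%), with AATACA in 30 of 252 (11.9%) and with TATAAA in 33 of 283 (11.7%). With AAGAAA it was 7 of 220 (3.18%) and with AACAAG 3 of 81 (3.70%). Where the most used member held at least 2 variants it was 106 of 753 (14.1%). The background over all 3453 genes was 10.7%. The most used member lay upstream of the most used AATAAA site in 2699 genes (78.2%), at a median distance of 855 bases. It was upstream in 53.8% of the genes with higher members and in 83.6% of those with higher AATAAA sites.

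The genes with the highest RPM among those with higher members were Bcat1, Sumo3, Serbp1, Ndufa7 and Ghitm. Serbp1, an mRNA-binding protein, had 562, 574 and 696 RPM at its members and 10.5, 21 and 32.4 RPM at AATAAA sites, a log2 ratio of 4.98 ± 0.573 (SE, limma adjusted p = 0.00201). Its leading member carried AATATA, ended at an annotated transcript end and lay 4940 bases upstream of the leading AATAAA site. Ndufa7, a subunit of respiratory complex I, had 498, 492 and 560 RPM at its member (AACAAA and AATATA) against 9.38, 4.38 and 13.2 RPM, a log2 ratio of 5.98 ± 0.581 (limma adjusted p = 0.00148). Bcat1 had 822, 735 and 861 RPM against 15.1, 11.98 and 19.9 RPM, a log2 ratio of 5.71 ± 0.519 (limma adjusted p = 0.00135), with AATAAA at −43 of its leading member as given above. Ghitm, a mitochondrial inner membrane protein, had 399, 415 and 473 RPM against 39.3, 52.8 and 55.3 RPM, and its leading member (AATAGA and AATATA) also had AATAAA at −42. Sumo3 had 6, 0 and 0 reads at AATAAA sites against 8297, 8363 and 11462 at its member.

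The genes with the highest RPM among those with higher AATAAA sites were Rpl32, Gm20388, Rack1, Eef2 and Rpl14. Rpl32, a ribosomal protein gene, had 8.57, 10.1 and 7.18 RPM at an AAGAAA member 35 bases upstream of the leading AATAAA site, and 5142, 5692 and 5658 RPM at AATAAA sites (log2 ratio −9.32 ± 0.519, limma adjusted p = 0.00110). Rack1, a scaffold protein of the small ribosomal subunit, had 0, 2 and 0 reads at its CATAAA member, and Rpl14 had 0, 0 and 1 read at a member with AAGAAA and AGTAAA. Eef2, the elongation factor of translocation, had 16, 1 and 0 reads at an ATTACA member. The annotated gene Gm20388 spans other genes, and its compared sites lie 127002 bases apart.

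Members were then followed in gene lists, to be read against all genes, where a member was the most used site in 13.9%, members were higher in 10.7% of tested genes and AATAAA sites in 73.0%. Of 10 core pluripotency genes at 10 RPM or more, a member was the most used site in 3 (Dppa4, Tdgf1 and Dppa2). Dppa4, a nuclear protein of pluripotent cells, had 192, 168 and 181 RPM at a site with ACTAAA and ATTACA, 92.7% ± 3.02 of its terminal exon RPM. Tdgf1, the Nodal co-receptor Cripto, had 154, 171 and 146 RPM at members led by AACAAA (97.6% ± 2.02), and Dppa2, the partner of Dppa4, had 28.1, 33.5 and 34.6 RPM at members led by ATTACA (88.4% ± 2.70). These 3 did not enter the test against AATAAA sites, and AATAAA sites were higher in the 3 genes of the list that were tested. Of 12 naive pluripotency genes at that level, no member was the most used site, and AATAAA sites were higher in 7 of the 8 tested. Klf4, a transcription factor of naive cells, had 4.51, 11.04 and 8.11 RPM at an AATACA member, 9.95% ± 3.74 of its terminal exon RPM (log2 ratio −3.22 ± 0.559, limma adjusted p = 0.00563).

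Among genes of the cleavage and polyadenylation machinery, a member was the most used site in 3 of 20 at 10 RPM or more (Cpsf1, Ppp1cb and Wdr33), and members were higher in 2 and AATAAA sites in 9 of 12 tested, both near the shares over all genes. Wdr33, which reads the signal itself, had 50.5, 56.4 and 51.8 RPM at members led by AATACA, 83.9% ± 5.597 of its terminal exon RPM (log2 ratio 2.64 ± 0.558, limma adjusted p = 0.0102). Without replicate 2 its adjusted p was 0.0508 (limma, Benjamini-Hochberg). Ppp1cb, a phosphatase catalytic subunit associated with the complex, had 70.5, 89.7 and 61.3 RPM at members led by AGTAAA (89.98% ± 0.698, log2 ratio 3.92 ± 0.553, limma adjusted p = 0.00328). Cpsf1, the large scaffold subunit of CPSF, had 256, 248 and 254 RPM at a site with AAGAAA and TATAAA and nearly all of its RPM there.

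Of 22 cell cycle genes, a member led in 5 (Aurka, Cdk1, Cdk2, Cdk4 and Mcm3). Members were higher in 1 of 10 tested (Cdk1) and lower in 7, near the shares over all genes. Mcm3, a subunit of the replicative helicase, had 552, 529 and 550 RPM at members led by a site with AATATA and AGTAAA. Cdk4, a G1 kinase, had 271, 282 and 287 RPM, all at members led by the AACAAG site printed above. Its 3 listed terminal exon sites were all members. Cdk2 had 200, 212 and 235 RPM at members, but its leading AAGAAA site had ATTAAA at −41.

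Of 9 histone genes at 10 RPM or more, H2afv and H2afy were led by members, and both were called with higher members among 5 tested, with 1 lower. H2afv, a variant of H2A, had 316, 422 and 311 RPM at members led by GATAAA (log2 ratio 6.71 ± 0.657, limma adjusted p = 0.00150). H2afy, which codes for macroH2A, had 85.2, 106 and 147 RPM at members led by AGTAAA (log2 ratio 4.13 ± 0.690, limma adjusted p = 0.00509). H3f3b, which codes for the replication-independent histone H3.3, had 140, 132 and 161 RPM at members led by AGTAAA, 34.9% ± 3.94 of its terminal exon RPM, and was not called (log2 ratio −0.78 ± 0.517, limma adjusted p = 0.214). With 5 genes tested, the list is small. Members led in none of the 17 translation factor genes, 4 of 68 ribosomal protein genes (Rpl23a, Rpl27, Rpl7a and Rplp2), 1 of 8 tubulin and actin genes (Tubb2b) and none of 11 heat shock genes. AATAAA sites were higher in 8 of 9, 18 of 22, 3 of 3 and 7 of 8 tested genes of these lists. The exception among heat shock genes was Dnajb1, with higher members.

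Single genes of these lists showed the range. Rps27l, a ribosomal protein paralog, had 219, 249 and 187 RPM at its TATAAA member, 46.6% ± 2.68 of its terminal exon RPM, and was not called (log2 ratio −0.19, limma adjusted p = 0.748). Rpl27 had 130, 141 and 130 RPM, all at its AACAAA member, the only terminal exon site listed for it. Tubb2b, a beta tubulin, had 33.6, 29.1 and 31.3 RPM at members led by CATAAA (83.0% ± 6.90). Among translation factors, Eif2s2, a subunit of eIF2, had 54.6, 55.9 and 59.8 RPM at members (4.10% ± 0.438) and was not called (log2 ratio −0.08, limma adjusted p = 0.896). Its AATAAA sites held about as little, so most of its terminal exon RPM lay at sites of neither class. Eif4e, the cap-binding factor, had 5.22% and Eif4g2 1.61% of their terminal exon RPM at members, and both were called with higher AATAAA sites (limma adjusted p = 0.00236 and 0.00145). The same call was made for Actb, with 0.730% at an AATAAG member, for Tubb5, with 0.196% at an AACAAG member, and for Hspa9, a mitochondrial HSP70, with 5.05%. For Hsp90aa1 the call of higher AATAAA sites (log2 ratio −2.05 ± 0.529, limma adjusted p = 0.0190) was lost when any 1 library was left out, at adjusted p from 0.0568 to 0.0657. For Dnaja1 the same call (adjusted p = 0.0102) was lost without replicate 2, at an adjusted p of 0.0516 (limma, Benjamini-Hochberg).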

How the data were processed

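The 3 lists, 1 per library, gave the same sites. Their values are RPM as deposited by the authors, read as such from the values, since the lists have no header line. The genome was mm10 and the annotation GENCODE M21, per the deposited text files. The aligner, the site caller and its settings were not given in the sources used here. The RPM were whole multiples of 1 read at 100% of sites within 0.1 reads, giving 11085428, 14855484 and 14064461 reads as denominators. The autosomal terminal exon sites compared here held 8736858, 11743474 and 12182243 of these reads, the most in replicate 3. Reads carry no stated molecular identifiers.

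Each deposited hexamer at autosomal and X terminal exon sites (58356) was found at its place in GRCm38, from which the printed bases were read (RefSeq genome). Sites were assigned to GENCODE M21 genes on their strand, or within 1000 bases downstream, and 57 sites tied between genes were left out of gene values. Class and variant means were compared within each library and tested by exact sign-flip over 3 libraries. Genes were tested with limma 3.58.1 (R 4.3.3) on log2 ratios of RPM + 0.05, at a mean of at least 5 RPM. Because the deposited unit is RPM, the quasi-likelihood test of edgeR 4.0.16 was run on recovered reads as an alternative. Both were tested on simulated data. Other alternatives were a pseudocount of 0.5 RPM, no minimum or 20 RPM, a window of −35 to −15, leaving out each library, strongest sites or sites near others, a control window upstream, and rescaling to autosomal reads. Tables were handled with Python 3.11.15, pandas 2.3.3 and numpy 2.4.6.

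Named were the 10 members with the highest mean RPM, the 2 leading sites of each variant (values in the plot of named sites), the 5 called genes with the highest RPM in each direction, and up to 3 genes of each list with at least 5 RPM at members, except 1 site that is not reported here. Srm, Eif3g, Cdk1, Aurka and other genes named beside a count were chosen after their values were seen. The members and gene lists were chosen with earlier results of these data known.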

Additional observations from a re-analysis of the deposited data

Results flagged for a closer look

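The report uses autosomes only, and the X chromosome carried signal outside it. By the same rule, 381 X-linked terminal exon sites had a rare variant and no main signal in the window. They summed to 1684 RPM in replicate 1 (18673 reads) and 1640 RPM in replicate 2 (24370 reads), and to 0 in replicate 3. All X-linked sites were without reads in replicate 3, so they enter no comparison over 3 libraries.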

How the results depend on the processing

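The 3 class comparisons kept the direction of their mean over libraries under every alternative run. Among sites read in every library, however, the libraries differed in direction for members against sites without a hexamer, where the mean lay near 0 as given above. The levels of the single variants did so too, except ACTAAA against other members (log2 −0.29), which was 0.0263 with the window −35 to −15. Their order was less stable, as given above for the lower variants and GATAAA. Of the gene calls, 368 higher and 2522 lower members became 249 to 304 and 2043 to 2285 when 1 library was left out, 296 and 2254 with edgeR on recovered reads, 435 and 2666 with a pseudocount of 0.5 RPM, and 250 and 1764 at a minimum of 20 RPM, where fewer genes are tested. The ratio within each library serves as the replicate block: with no replicate block the counts were 402 and 2591. For ATTAAA, the 410 genes with higher ATTAAA sites became 246 to 313 when 1 library was left out (246 without replicate 2). For sites without a hexamer, 145 became 78 at a minimum of 20 RPM. Among named genes, Eif2s2 (log2 ratio −0.08) ranged from −0.206 to 0.051 when 1 library was left out and changed sign without replicate 3 (limma adjusted p = 0.943), 7 values lost their call, 6 gained one and 361 kept direction and call. The cause was not tested for the window, for ATTAAA or for Eif2s2. Of the members, 44.0% had reads in 1 library only, and what depth contributes to this was not tested. Replicate 3 had the most reads at autosomal terminal exon sites (12182243) and the fewest members with reads (7169, against 7295 and 9202). The 3 libraries cannot give a sign-flip p under 0.25.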
